A study of Rattus norvegicus with 18 samples.

Results

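The genes described here encode 8 proteins of the contractile and supporting cytoskeleton of smooth muscle cells and myofibroblasts, namely Acta2, Tagln, Cnn1, Actg2, Vim, Tpm1, Tpm4 and Cald1. They were chosen by gene symbol from a list of 8, and all 8 were measured, by 16 of the 8740 probe sets tested, which name 4736 genes. A probe set is a group of short probes that read the same mRNA. Acta2 has 3 probe sets, Tagln 2, Tpm1 5 and Tpm4 2, and Cnn1, Actg2, Vim and Cald1 have 1 each. Where a gene has several, the probe set with the highest mean signal stands for the gene and the others are described beside it.

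The tissue was the middle of the femoral shaft of intact female Sprague-Dawley rats, with callus, cortical bone and marrow. Rats were 6 weeks (young), 26 weeks (adult) or 52 weeks (older) of age at fracture, and every rat that was fractured received a steel rod in the marrow cavity and a closed transverse break. Tissue was taken from 0 time controls without fracture (sham controls in the methods) and at 5 later times, which were 0.4 week (3 days), 1, 2, 4 and lastly 6 weeks. The 18 Affymetrix rat expression arrays hold 1 array for each age and time, each with pooled RNA of 2 rats, so that the 3 ages serve as the replicates of a time and no age has a replicate of its own at a time.

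Smooth muscle cells contract through actin filaments that slide along myosin. Fibroblasts of a wound become myofibroblasts when they build the same kind of filaments, with smooth muscle alpha-actin (Acta2) as the usual marker, and pull on the matrix that they lay down. Callus holds connective tissue cells, cartilage and bone together with new vessels, whose walls carry smooth muscle cells and pericytes. In bulk tissue more cells of a type and more RNA per cell cannot be told apart.

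Signals are linear, in arbitrary fluorescence units, and each array had been scaled to the same average of 500. The trimmed mean was 500 on all 18 arrays, the median signal was 149.4 to 187.7 and 10.5% to 17.9% of probe sets were below 20. No signal of the 16 probe sets was below that floor. The 3'/5' signal ratio of Gapdh, which increases as RNA degrades, was 3.48 in young rats at 4 weeks and 6.57 in young rats at 6 weeks, against 1.15 to 1.83 on the other 16 arrays. The source label of the young 0 time array reads callus although its title gives no fracture. Marker genes of bone and of skeletal muscle were both bright in the 0 time controls, with a mean signal of 14293 for Bglap (osteocalcin, made by osteoblasts) and 15409 for Myl2 (a myosin light chain of slow muscle and heart).

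To show what stands before the starts of these genes, the 250 bases upstream were taken from RefSeq (build GRCr8), which held entries for 7 of the 8 genes (8 starts in all, Cald1 having 2). Tagln had no entry. Each was searched on both strands for the CArG box, the site of serum response factor at many smooth muscle genes, and for CATTCC, the core of the MCAT element that TEAD factors bind. No start held a perfect CArG box, which 1.5% of 33469 rat promoters of this length hold. The search was then widened to a CArG box with 1 base of its centre changed, which 6.84% of the promoters hold and which only the Acta2 start held among the 8. CATTCC was found before Acta2, Tpm1 and the upstream start of Cald1, against 12.1% of all promoters. The remaining 4 genes held no match, which says only that these letters are not in this window. The 3 starts with a match are printed 5′ to 3′ in the direction of transcription, with the matches in capitals. In each, GGAATG is CATTCC read on the other strand, and in Acta2 the other capitals are the 2 changed CArG boxes.
Acta2, chr1:241172504-241172753, minus strand: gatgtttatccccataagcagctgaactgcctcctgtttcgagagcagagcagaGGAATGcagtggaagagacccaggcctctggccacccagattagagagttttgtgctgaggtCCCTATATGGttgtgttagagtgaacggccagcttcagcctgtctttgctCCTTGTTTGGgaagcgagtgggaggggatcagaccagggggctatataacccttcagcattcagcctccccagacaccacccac
Tpm1, chr8:76543416-76543665, minus strand: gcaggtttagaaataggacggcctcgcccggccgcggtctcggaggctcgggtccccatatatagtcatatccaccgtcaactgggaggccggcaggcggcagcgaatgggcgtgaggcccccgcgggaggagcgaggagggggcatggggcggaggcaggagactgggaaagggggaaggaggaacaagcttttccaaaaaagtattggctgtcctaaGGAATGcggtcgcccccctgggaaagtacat
Cald1, chr4:64233006-64233255, plus strand: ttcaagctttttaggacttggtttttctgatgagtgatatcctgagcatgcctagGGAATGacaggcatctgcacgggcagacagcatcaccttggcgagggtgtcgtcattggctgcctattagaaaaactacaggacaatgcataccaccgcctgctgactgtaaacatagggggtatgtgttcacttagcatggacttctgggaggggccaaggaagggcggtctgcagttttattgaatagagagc
Counted from the start, the Acta2 matches lie at -196 to -191 (CATTCC), -134 to -125 (CCCTATATGG) and -84 to -75 (CCTTGTTTGG). CATTCC lies at -31 to -26 before Tpm1 and at -195 to -190 before Cald1. A match of letters is a description and no binding was measured here.

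The first comparison asked which of the 8 genes changed after fracture, with the 3 ages as replicates. At 1 week after fracture Acta2, Tagln, Cnn1, Vim, Tpm4 and Cald1 were higher than in the 0 time controls, between 2.09-fold and 5.97-fold, the brightest probe set of Tpm1 was 2.62-fold lower, and Actg2 was not called. Of all probe sets, 34.9% were called at 1 week (14.6% higher and 20.4% lower), at an adjusted p under 0.05 in limma. At 0.4 week 4 of the 8 genes were higher and 1 was lower, against 31.1% of all probe sets called. At 2 weeks 3 were higher and 1 was lower (19.8% of all probe sets called, 9.49% higher and 10.3% lower). At 4 weeks only Vim was higher (5.08% of all, 3.31% higher), and at 6 weeks none of the 8 was called (0.881% of all). Of the 8, 2 had an unadjusted p under 0.05 in limma at 6 weeks, against 1792 of the 8740 probe sets. The median log2 change of the 8 genes was 1.22, 1.26, 0.94, 0.25 and 0.20 at the 5 times in order, beside medians of -0.13, -0.13, -0.13, -0.04 and -0.06 over all probe sets. A moderated F test over the 5 times called 6 of the 8 genes, all but Actg2 and Cald1, against 26.4% of all probe sets. Without the young 0 time array (chosen after the data were seen), 4 of the 8 genes were called at 4 weeks (Vim, Tpm4 and Cald1 higher, Tpm1 lower) and 3 at 6 weeks (Vim and Tpm4 higher, Tpm1 lower). Without the adult or the older arrays, 0 of the 8 were called in limma at 1 week, with 5 and 6 genes at an unadjusted p under 0.05. How many of all probe sets were called in these fits with fewer arrays was not counted.

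**Figure D1:**
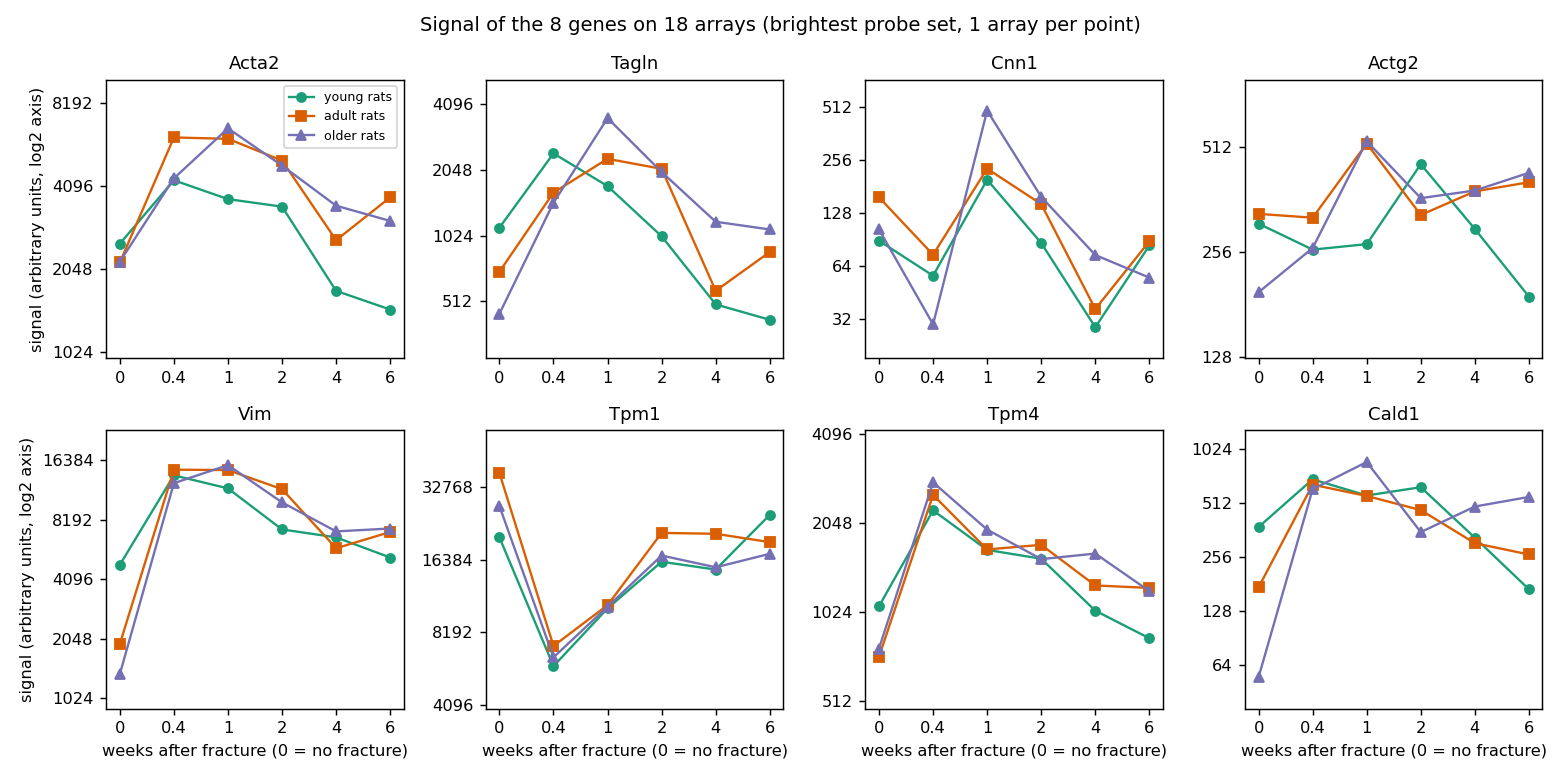
Signal of the 8 genes (vertical axis, arbitrary units, log2 axis) at each time after fracture (horizontal axis, weeks, 0 being no fracture), with a line for each age and 1 array of pooled RNA from 2 rats per point. Acta2, Tagln, Vim, Tpm4 and Cald1 are above all 0 time controls at every age at 0.4 and 1 week, Cnn1 only at 1 week, and the brightest probe set of Tpm1 is below them at both times.

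Acta2, the actin isoform of vascular smooth muscle and myofibroblasts, was up-regulated from 0.4 to 2 weeks. In young, adult and older rats its signal was 2536, 2169 and 2182 in the controls, 4306, 6154 and 4375 after 0.4 week and 3679, 6083 and 6639 after 1 week. It was then 3455, 5074 and 4867 after 2 weeks, 1711, 2612 and 3482 after 4 weeks and 1465, 3733 and 3067 after 6 weeks. All arrays of 0.4, 1 and 2 weeks were above all 3 controls, and at 4 and 6 weeks the young rats were below their own control while adult and older rats were above theirs. The change was 2.13-fold at 0.4 week (log2 1.09, SE 0.26, limma adjusted p = 0.0096), 2.31-fold at 1 week (log2 1.21, adjusted p = 0.0059) and 1.92-fold at 2 weeks (log2 0.94, adjusted p = 0.03). At 4 and 6 weeks it was 0.13 and 0.16 on the log2 scale with the same SE, and was not called.

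The other probe sets of Acta2 did not give the same size of change. X06801cds_i_at, whose signal ranged between 114 and 1906, was 4.25-fold higher at 1 week (log2 2.09, SE 0.62, limma adjusted p = 0.024) and was called at no other time. Its signal correlated with that of the brightest set at r = 0.92 across the 18 arrays. X06801cds_f_at ranged between 1283 and 3152 with no called change (log2 0.14 at 1 week, adjusted p = 0.6), and its correlation with the brightest set was 0.33. The suffix f marks probes shared with related sequences, and actins are near-identical in sequence. The brightest Acta2 probe set has the suffix s, as have the brightest probe sets of Cnn1, Tpm1 and Cald1. Whether the probes of these sets are also shared with related sequences was not tested, so they cannot be taken as specific to their gene. A further 4 probe sets that are annotated to Acta2 together with another actin were not counted. With the mean of all 3 probe sets, the log2 change of Acta2 at 1 week was 1.14 (adjusted p = 0.014 in limma over all genes).

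Tagln encodes transgelin (SM22), an actin-binding protein that appears early as smooth muscle cells form. Its signal was 1113, 698 and 448 in the controls, 2439, 1612 and 1448 after 0.4 week and 1727, 2304 and 3544 after 1 week, always for young, adult and older rats in turn. It was 1016, 2073 and 2005 after 2 weeks, 495, 571 and 1185 after 4 weeks and 420.2, 861 and 1092 after 6 weeks in the same order. The 0.4 and 1 week arrays were all above the controls, which themselves differed 2.49-fold between their highest and lowest. Tagln was 3.44-fold higher at 1 week (log2 1.78, SE 0.48, limma adjusted p = 0.016), while the 2.54-fold at 0.4 week (adjusted p = 0.053) and the 2.30-fold at 2 weeks (adjusted p = 0.094) were not called. The peak was at 0.4 week in young rats and at 1 week in adult and older rats. At its peak it was 2.19-fold, 3.30-fold and 7.92-fold of the own control in young, adult and older rats.

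The second Tagln probe set, M83107_at, ranged between 261 and 2548 and correlated with the first at r = 0.92 over 18 arrays. It was called at no time after fracture (3.13-fold at 1 week, adjusted p = 0.063). Its 0 time controls were 1267, 455 and 261 in young, adult and older rats, and in young rats no later signal was as high.

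Cnn1, calponin 1, restrains the myosin motor on actin and marks late smooth muscle differentiation. It was dim. In young, adult and older rats its signal was 88.9, 157 and 103 in the controls, 56.2, 74.0 and 29.7 after 0.4 week and 198, 229 and 489 after 1 week. Later it was 86.3, 144 and 158 after 2 weeks, 28.6, 36.3 and 73.7 after 4 weeks and 83.5, 88.2 and 54.8 after 6 weeks. Only at 1 week were all ages above all controls, whereas at 0.4, 4 and 6 weeks every array was below every control. The increase at 1 week was 2.49-fold (log2 1.31, SE 0.46, limma adjusted p = 0.046). The largest difference was at 4 weeks, with a mean of 46.2 ± 24.1, against 116 ± 35.9 at 0 time (SD, n = 3 each), which was log2 -1.41 and not called by itself (adjusted p = 0.093). The F test over the 5 times called Cnn1 (adjusted p = 0.011).

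Actg2, the gamma-actin of visceral smooth muscle, had no called change at any time. Its signals were 308, 329 and 196 in the controls, 259.8, 321 and 263 after 0.4 week and 269, 523 and 531 after 1 week, always for young, adult and older rats in turn. They were 456, 327 and 365 after 2 weeks, 298, 381 and 384 after 4 weeks and 191, 405 and 431 after 6 weeks. The arrays overlapped the controls at each of the 5 times. The change was largest at 1 week, with log2 0.64 (SE 0.32, limma adjusted p = 0.14), where adult and older rats were above all controls and young rats were below their own. The F test gave an adjusted p of 0.48.

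Cald1 encodes caldesmon, which binds actin, tropomyosin and myosin and is made in a long smooth muscle form and a short form of other cells. Which of these forms its probe set reads is not given in the sources used here. Its signals were 376, 174 and 54.9 in the controls, 693, 647 and 611 after 0.4 week and 563, 559.8 and 865 after 1 week, always for young, adult and older rats in turn. They were 626, 467 and 352 after 2 weeks, 328, 306 and 489 after 4 weeks and 169, 264 and 553 after 6 weeks. The 0 time controls differed 6.85-fold between their highest and lowest, and the arrays of 0.4 and 1 week were all above the highest of them. Cald1 was 4.24-fold higher both at 0.4 week (log2 2.08, SE 0.61, limma adjusted p = 0.025) and at 1 week (adjusted p = 0.023). Its 3.06-fold at 2 weeks was not called (adjusted p = 0.08), nor was the F test (adjusted p = 0.11). In young rats the signal at 6 weeks was 0.45 of the own control, and in older rats it was 10.1-fold of it.

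**Figure D2:**
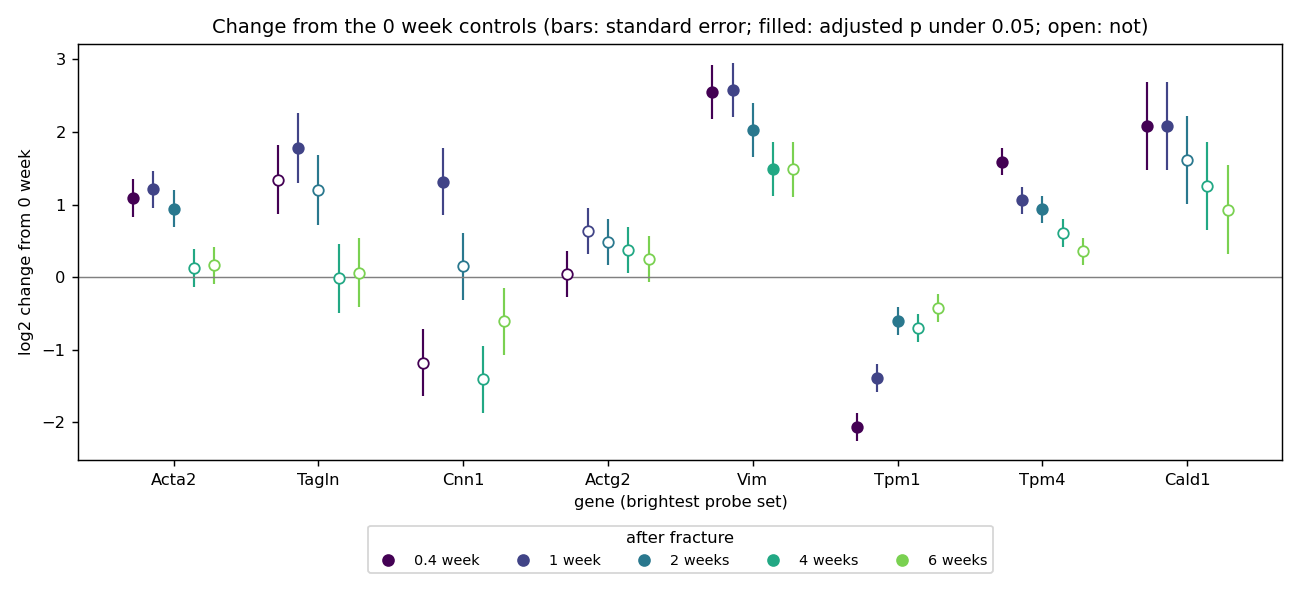
Log2 change from the 0 time controls (vertical axis) for the brightest probe set of each of the 8 genes (horizontal axis) at the 5 times after fracture, early to late from left to right and dark to light, with 3 ages as replicates. Bars are standard errors, and filled points passed an adjusted p under 0.05 in limma. Vim is filled at the first 4 times, Tpm1 is below 0 throughout and Actg2 has no filled point.

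Vim encodes vimentin, the intermediate filament protein of fibroblasts, endothelial cells, leukocytes and other mesenchymal cells, and it stayed high longest. Its signal was 4844, 1923 and 1355 in the controls, 13760.2, 14703 and 12558 after 0.4 week and 11816, 14628 and 15500.2 after 1 week, always for young, adult and older rats in turn. It was 7319, 11709 and 10036 after 2 weeks, 6673, 5877 and 7153 after 4 weeks and 5275, 7104 and 7399 after 6 weeks. Every array after fracture was above all 3 controls, including those of 6 weeks. Vim was 5.86-fold higher at 0.4 week (log2 2.55, SE 0.38, limma adjusted p = 0.00087), 5.97-fold at 1 week (adjusted p = 0.0014), 4.09-fold at 2 weeks (adjusted p = 0.009) and 2.81-fold at 4 weeks (adjusted p = 0.047). The 2.80-fold at 6 weeks was not called (adjusted p = 0.079), but was called without the young 0 time array (log2 2.10, adjusted p = 0.00015). The ages were close to each other at 0.4 week, with 1.17-fold between the highest and the lowest, and far apart at 0 time, with 3.58-fold.

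Tropomyosins lie along the groove of actin filaments and govern the access of myosin. Tpm4, a short form of non-muscle and smooth muscle cells, had signals of 1072, 723 and 771 in the controls, 2264, 2555 and 2818 after 0.4 week and 1664, 1669.7 and 1949 after 1 week, always for young, adult and older rats in turn. Its later signals were 1553, 1731 and 1548 after 2 weeks, 1036, 1261 and 1617 after 4 weeks and 835, 1237 and 1207 after 6 weeks. The highest signal of each age was at 0.4 week, and all arrays of 0.4, 1 and 2 weeks were above all controls. Tpm4 was 3.01-fold higher at 0.4 week (log2 1.59, SE 0.19, limma adjusted p = 0.00032), 2.09-fold at 1 week (adjusted p = 0.0027) and 1.91-fold at 2 weeks (adjusted p = 0.011). The 1.52-fold at 4 weeks and 1.28-fold at 6 weeks were not called. The second Tpm4 probe set, rc_AI105374_at, ranged between 251 and 647 and had no called change. Its correlation with the brighter set was -0.24 over 18 arrays.

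Tpm1 makes many products by alternative first exons, internal exons and ends, among them the alpha-tropomyosin of striated muscle and the forms of smooth muscle and fibroblasts, and its 5 probe sets did not all change in the same direction. The brightest, M34134_s_at, had signals of 20239, 37300.1 and 27251 in the controls, 5947, 7204 and 6466 after 0.4 week and 10301, 10623 and 10468 after 1 week, always for young, adult and older rats in turn. Its later signals were 16044, 21106 and 17022 after 2 weeks, 14896, 20931 and 15221 after 4 weeks and 25066, 19336 and 17304 after 6 weeks. All arrays of 0.4 and 1 week were below all controls. This probe set was 4.20-fold lower at 0.4 week (log2 -2.07, SE 0.19, limma adjusted p = 9.4e-05), 2.62-fold lower at 1 week (adjusted p = 0.0012) and 1.53-fold lower at 2 weeks (adjusted p = 0.046).

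X02412_at, described in the study's probe annotation as striated muscle alpha-tropomyosin, changed in the same direction. Its signals were 11175, 17757 and 12419.9 in the controls, 2116, 1686 and 1631 after 0.4 week and 6286, 5467 and 4506 after 1 week, always for young, adult and older rats in turn. They were 8364, 10574 and 11213 after 2 weeks, 7964, 9066 and 9978 after 4 weeks and 13598, 10418 and 10498 after 6 weeks. It was 7.51-fold lower at 0.4 week (log2 -2.91, SE 0.21, limma adjusted p = 3e-05) and 2.52-fold lower at 1 week (adjusted p = 0.0017). M15474cds_s_at was 4.41-fold lower at 0.4 week (adjusted p = 0.001), 2.12-fold lower at 1 week (adjusted p = 0.026) and 2.05-fold lower at 2 weeks (adjusted p = 0.047).

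M60666_s_at, described in the study's probe annotation as alpha-tropomyosin 2, was instead up-regulated. Its signals were 3091, 739 and 646 in the controls, 4218, 3415 and 3551 after 0.4 week and 6530.3, 5099 and 5203 after 1 week, always for young, adult and older rats in turn. They were 5693, 4126 and 5725 after 2 weeks, 4077, 4668 and 3185 after 4 weeks and 1704, 3855 and 3327 after 6 weeks. All arrays of 0.4, 1 and 2 weeks were above all 3 controls, among which the young control was far above the adult and older controls. It was 3.26-fold higher at 0.4 week (log2 1.71, SE 0.49, limma adjusted p = 0.022), 4.90-fold at 1 week (adjusted p = 0.0058) and 4.50-fold at 2 weeks (adjusted p = 0.015). The 3.45-fold at 4 weeks was not called (adjusted p = 0.058). The dim probe set rc_AI144767_s_at, between 84.5 and 350.3, was called at no time. With M60666_s_at in the place of the brightest probe set, 7 of the 8 genes were higher at 1 week and none was lower, and 5 were higher at 0.4 week.

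**Figure D3:**
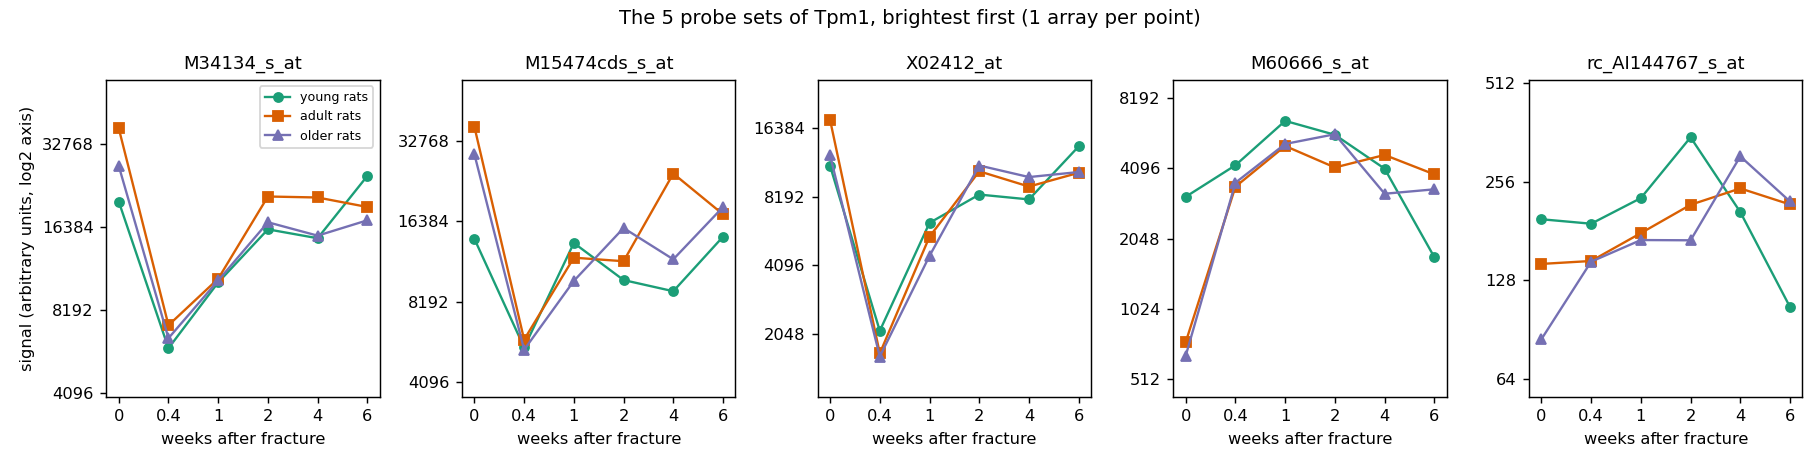
Signal of the 5 probe sets of Tpm1 (vertical axis, arbitrary units, log2 axis, a scale for each panel) at each time after fracture (horizontal axis, weeks), with a line for each age and 1 array per point. The 3 brightest probe sets, on the left, are lowest at 0.4 week at every age, and M60666_s_at is above all of its controls at 0.4, 1 and 2 weeks.

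Skeletal muscle genes moved with the falling probe sets of Tpm1 and opposite to most members that rose. Of 15 measured genes of skeletal muscle fibres (17 listed), 14 fell over time by the F test and none rose, against 13.1% of all probe sets lower. Their summed signal was 45231 to 51558 at 0.4 week, against 169536 to 304670 at 0 time. Myl2 was 114-fold lower at 0.4 week by mean log2 signals, and Myh2, a fast myosin heavy chain, was 38.1-fold lower. The mean signal of Myl2 was 221 ± 186, against 15409 ± 5123 in the 0 time controls (SD, n = 3 each), and the ratio of these means is smaller. The mean of that list correlated with M34134_s_at at r = 0.96, with X02412_at at 0.98 and with M60666_s_at at -0.48 over 18 arrays, which share their scaling. With the members that rose its correlation was -0.90 for Tpm4, -0.76 for Vim, -0.68 for Cald1, -0.65 for Acta2 and -0.60 for Tagln, and 0.11 for Cnn1. The part of muscle tissue in the changes of any member was not tested.

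The 8 genes did not follow a shared course across the 18 arrays. The median r between pairs of the 8 brightest probe sets was 0.46 (28 pairs), with a lowest of -0.89 for Tpm1 with Tpm4 and a highest of 0.91 for Acta2 with Tagln. Without Tpm1 the median was 0.57 (21 pairs). Vim and Cald1 correlated at 0.89 and Vim and Tpm4 at 0.87, while Cnn1 correlated with Vim at 0.12 and with Tpm4 at -0.007. The arrays share their scaling and their times, so these values are a description.

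The genes whose signal most resembled the mean course of the 8, among 2578 genes searched, were Meox2 (r = 0.93, a homeobox factor of mesoderm), Plod1 (0.93, a lysyl hydroxylase for collagen), Ddr2 (0.91, a collagen receptor), Plat (0.91, tissue plasminogen activator) and Pmepa1 (0.90, a TGF-beta target). Plod1 averaged 352 in the controls, and 917, 1026, 795, 502.5 and 446 at the 5 later times in order. Pmepa1 averaged 2519.9, 10150.3 and 10667 at 0, 0.4 and 1 week.

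Of 13 other genes of the smooth muscle contractile apparatus measured (23 listed), 2 were higher over time by the F test and 1 was lower, so 3 of 13 were called, against 26.4% of all probe sets. The 2 that rose were Csrp2, a LIM protein of smooth muscle, which was 9.71-fold higher at 1 week (2149 ± 1091, against 209 ± 60.3 at 0 time, SD, n = 3 each, limma adjusted p = 0.00076), and Csrp1, its relative, which was 3.20-fold higher at 0.4 week (adjusted p = 0.0014). Adra1d, an adrenergic receptor, was 1.67-fold lower at 1 week. Myh11, the smooth muscle myosin heavy chain and the most specific gene of the list, had log2 0.62 at 1 week and was not called (adjusted p = 0.063). The correlation of the list's mean with Acta2 was 0.89 and with Vim 0.52, over 18 arrays.

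Genes of the actin cytoskeleton that all cells share were mostly higher where they were called. Of 22 measured (37 listed), 8 were higher and 2 were lower over time, and 11 were higher at 0.4 week. Of all probe sets, 13.4% were higher and 13.1% lower over time, and 14.1% were higher at 0.4 week. Rhoa, the GTPase that drives actin bundling, was 3.87-fold higher at 0.4 week (1263 ± 54.8, against 344 ± 130 at 0 time, SD, n = 3 each, limma adjusted p = 0.0009). Capg, an actin capping protein of macrophages and other motile cells, was 3.57-fold higher, Cnn3, the calponin of non-muscle cells, 3.14-fold, and Arpc1b, a subunit of the Arp2/3 complex, 2.87-fold. Of 12 other intermediate filament genes measured (14 listed), 3 were higher and 1 was lower over time, against 26.4% of all probe sets called in either direction. Lmna, the nuclear lamin, was 2.00-fold higher at 0.4 week. Krt8 and Lmnb1, also higher, were dim, with mean signals of 63.0 and 91.4. Nes (nestin) was called by the F test but at no time by itself.

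Matrix and signalling genes of myofibroblasts moved with Vim and Cald1. Of 13 measured (17 listed), 7 were higher over time, none was lower, and 11 were higher at 0.4 week and again at 1 week. Of all probe sets, 13.4% were higher over time, 14.1% at 0.4 week and 14.6% at 1 week. Lox, the collagen cross-linking oxidase, was 30.8-fold higher at 1 week by mean log2 signals (log2 4.94, SE 1.21, limma adjusted p = 0.011). Its mean signal was 11229 ± 1294, against 974 ± 1353 at 0 time (SD, n = 3 each). The ratio of these means is smaller than the fold, and the controls were far apart. Thy1, a surface marker of fibroblasts, was 5.44-fold higher at 1 week, Tgfb3, a TGF-beta ligand, 4.38-fold at 1 week and Fn1, fibronectin, 5.32-fold at 2 weeks. The mean of the list correlated with Vim at 0.95, with Cald1 at 0.93 and with M60666_s_at of Tpm1 at 0.91, and with Cnn1 at 0.08, over 18 arrays. Vim, Cald1 and M60666_s_at also correlated with the list of the shared actin cytoskeleton, at 0.86, 0.815 and 0.77. With the bone list, which shares Col1a1 with the matrix list, they correlated at 0.68, 0.69 and 0.79. Its summed signal was 114499 to 131713 at 1 week, against 15232 to 116894 at 0 time, and the highest control was that of young rats.

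Of 5 pericyte genes measured (9 listed), 1 was higher over time by the F test, Cspg4 (the NG2 proteoglycan), 3.18-fold at 0.4 week, against 13.4% of all probe sets. At each of 0.4, 1 and 2 weeks 2 of the 5 were higher, against 14.1%, 14.6% and 9.49% of all probe sets. Anpep, an aminopeptidase of the cell surface, was 2.89-, 3.15- and 3.70-fold higher at these times (limma adjusted p = 0.045, 0.03 and 0.03) but did not pass the F test (adjusted p = 0.1). Of 7 endothelial genes (11 listed) none was higher over time and 1, Vwf, was lower, against 13.1% of all probe sets. The summed signal of the endothelial list was 1620 to 1850 at 1 week, against 1391 to 1673 at 0 time. Of the 3 macrophage genes measured (6 listed), only Cd14 was called at 0.4 week, 2.37-fold higher, against 14.1% of all probe sets higher. All 3 red cell genes fell over time by the F test, against 13.1% of all probe sets, with Hbb 10.8-fold lower at 1 week. Their mean correlated with Tagln at r = -0.87, with Acta2 at -0.85, with Vim at -0.84, with Tpm4 at -0.82, with Cald1 at -0.68 and with Cnn1 at -0.38, over 18 arrays. Of 5 bone genes 2 were higher over time (Ibsp, 9.40-fold at 1 week, and Spp1) and 1, Bglap, was lower. Of all probe sets, 13.4% were higher and 13.1% lower over time. The part of these cell types in the members' changes was not tested.

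The second comparison asked whether the age of the rats made a difference. Averaged over the 5 times after fracture, no member was called between older and young rats or between adult and young rats, and neither was any of the 8740 probe sets (0% in each), with 1103 and 735 of them at an unadjusted p under 0.05. For older against young rats, 7 of the 8 differences were above 0 with a median log2 of 0.39 (all probe sets, 0), and for adult against young rats 8 of 8, with a median of 0.31. Among the brightest probe sets, Acta2 had the lowest unadjusted p for older against young rats, 1.62-fold higher in older rats (log2 0.69, SE 0.16, unadjusted p = 0.0021, limma adjusted p = 0.18) and 1.68-fold higher in adult rats (log2 0.75, SE 0.16, adjusted p = 0.33). Tagln was 1.72-fold higher in older rats (log2 0.78, SE 0.30, adjusted p = 0.32), and its second probe set, M83107_at, 2.38-fold higher (log2 1.25, SE 0.23, unadjusted p = 0.00041, adjusted p = 0.13). All of these failed the adjustment.

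Averaged over 4 and 6 weeks, older rats had higher log2 signals than young rats for 7 of the 8 genes, with a median log2 difference of 0.68 (all probe sets, 0). At 6 weeks alone Cnn1 was 54.8 in older rats, against 83.5 in young rats, and Tpm1, the exception in the average, was 17304 in older rats, against 25066 in young rats. None passed the adjustment, and 0.149% of all probe sets were called (0.114% higher and 0.0343% lower). In limma 4 of 8 had an unadjusted p under 0.05, against 1276 of the 8740 probe sets. Tagln was 1185 and 1092 at 4 and 6 weeks in older rats, against 495 and 420.2 in young rats, a 2.49-fold difference (log2 1.32, SE 0.27, limma adjusted p = 0.13). Acta2 was 3482 and 3067 in older rats, against 1711 and 1465 in young rats, a 2.06-fold difference (log2 1.05, SE 0.21, adjusted p = 0.13). Tpm4 was 1.5-fold higher (adjusted p = 0.16) and Cald1 2.21-fold higher (adjusted p = 0.33). The Gapdh 3'/5' ratios of these arrays were 1.2 and 1.19 in older rats, against 3.48 and 6.57 in young rats, and the part of RNA quality was not tested.

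At 1 and 2 weeks the Gapdh ratios were 1.2 and 1.29 in older rats and 1.33 and 1.77 in young rats. No gene was called there either (0% of all probe sets). In limma 2 of 8 had an unadjusted p under 0.05, against 501 of the 8740 probe sets. Tagln was 3544 and 2005 in older rats, against 1727 and 1016 in young rats, a 2.01-fold difference (log2 1.01, SE 0.27, unadjusted p = 0.013, limma adjusted p = 0.71). Acta2 was 1.59-fold higher (adjusted p = 0.78), and Cald1 had a log2 difference of -0.11 (adjusted p = 1).

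The order of the ages differed between times. At 0 time the young rats had the highest signal of the 3 ages for 5 of the 8 genes and the older rats the lowest for 4. At 0.4 week the older rats were likewise lowest for 4 of 8 and highest for 1. At 1 week the older rats had the highest for 7 of 8 and the young rats the lowest for 7, whereas at 2 weeks the older rats were highest for 1 and the young rats lowest for 5. At 4 weeks the older rats had the highest for 7, and at 6 weeks for 4. With 1 array for each age and time this order has no test. The change from the own 0 time array, averaged over the 5 later times, was compared between older and young rats, with the spread taken from the later arrays.

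By that measure Vim had log2 changes of 0.80, 2.39 and 2.89 with increasing age, and the older rats exceeded the young rats by 2.10 (SE 0.30, limma adjusted p = 0.003). Cald1 had 0.17, 1.29 and 3.32 in the same order, and the older rats exceeded the young by 3.15 (SE 0.72, adjusted p = 0.032). Without the adult arrays, which enter only the estimate of the spread, Cald1 was no longer called (adjusted p = 0.18). These 2 of the 8 genes were called, against 6.59% of all probe sets (3.57% higher and 3.02% lower), and the median difference of the 8 was 1.00 (all probe sets, -0.13). The brightest Tagln probe set had -0.19, 0.90 and 1.91 and was not called (difference 2.09, adjusted p = 0.14), while M83107_at was called, with -1.0, 1.38 and 2.53 (difference 3.53, SE 0.56, adjusted p = 0.0058). M60666_s_at of Tpm1 had 0.39, 2.50 and 2.66 (difference 2.27, adjusted p = 0.051). Acta2 had 0.08, 1.05 and 0.99 (difference 0.91, adjusted p = 0.24). Its probe set X06801cds_i_at had -0.09, 1.09 and 2.83 (difference 2.92, SE 0.85, adjusted p = 0.082), and X06801cds_f_at differed by 0.02 (adjusted p = 1).

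**Figure D4:**
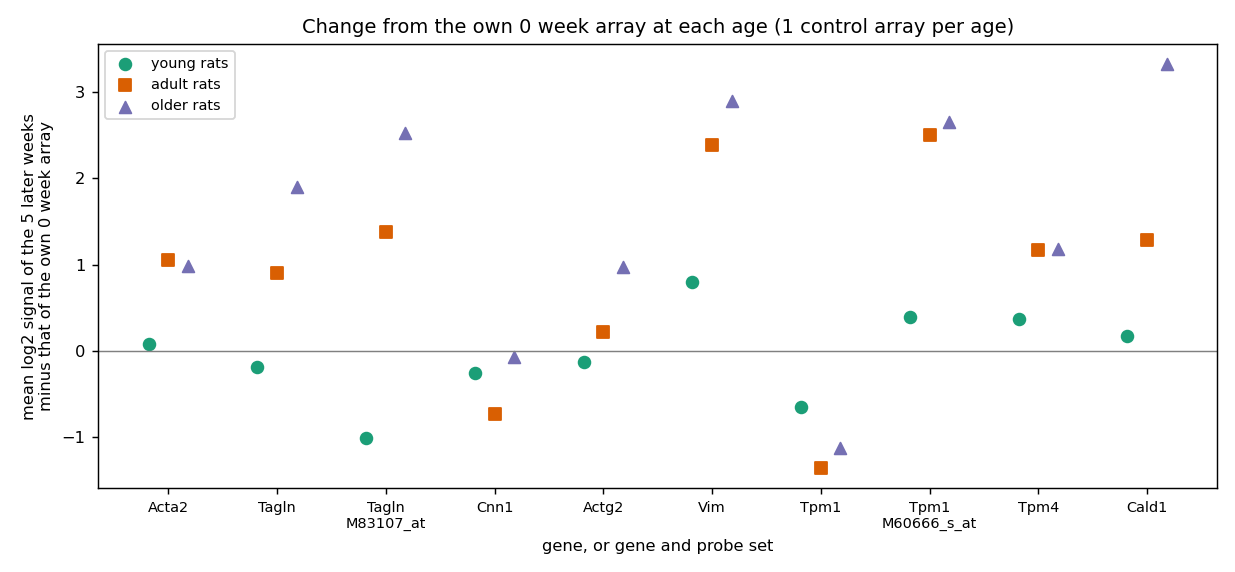
Mean log2 signal of the 5 later times minus that of the own 0 time array (vertical axis) in young, adult and older rats, for the brightest probe set of each gene and for M83107_at of Tagln and M60666_s_at of Tpm1 (horizontal axis). Each value rests on 1 control array per age. Vim and Cald1 are lowest in young rats and highest in older rats, and the brightest probe set of Tpm1 is below 0 at every age.

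For Vim and Cald1 these differences rest largely on how far apart the control arrays were. Over the later times alone, older rats exceeded young rats by log2 0.26 for Vim and 0.38 for Cald1. The same difference was 0.69 for Acta2 and 1.25 for M83107_at of Tagln, so there the later arrays also contributed. At 0 time Vim was 1355 in the older control, against 4844 in the young control, and Cald1 was 54.9 in the older control, against 376 in the young control. Matrix genes stood apart on the same arrays, with a summed signal of the myofibroblast matrix list of 15232 on the older control, against 116894 on the young control. In the same comparison 11 of the 13 genes of that list were called higher, against 3.57% of all probe sets. With 1 control array per age, the age and the array cannot be told apart. The young average of the later times also includes the arrays of 4 and 6 weeks, with Gapdh 3'/5' ratios of 3.48 and 6.57.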

How the data were processed

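The arrays of series 3 were analysed, 18 Affymetrix rat arrays with 1 for each of 3 ages and 6 times, and RNA of 2 rats was pooled on each. Those of the other series were not analysed here. The deposited intensity values are on a linear scale. The authors obtained them from Microarray Suite 5.0, with every array brought to the same average of 500, and they were not normalized again here.

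Of 8799 probe sets, 59 controls were left out. A floor of 20 was put under the signals before the log2 transformation. Folds from limma are differences of mean log2 signals, so they can differ from the ratio of the mean signals printed beside them. A rat gene table gave 1 symbol to 7006 probe sets, several to 308 and none to 1426, with 5124 of 5156 gene identifiers found.

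Tests were fitted to all 8740 probe sets with limma 3.58.1 in R 4.3.3, with an intensity trend and Benjamini-Hochberg adjustment at 0.05. The fit over time had age and time as additive terms, so each age is a block (the ages, not animals, pair the arrays), and 10 residual degrees of freedom. The other fits had age terms for the 2 phases (4 degrees of freedom), age and time over the later weeks (8), or 1 control array per age (8). These terms take out the mean level of each age. The p-values therefore measure how the ages depart from a shared course over time, together with the spread of pools and arrays.

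The members, the context lists and the tests were chosen with earlier results of these data known. All members and all their probe sets were named, up to 4 genes per context list that passed the F test with a mean signal of at least 200 and the largest change, and the 5 genes of highest correlation with the mean course. Myh11, Anpep, Vwf, Krt8 and Lmnb1 were named after their values were seen, and the changed CArG box was added later. Upstream sequence came from RefSeq.

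The alternatives were the mean of all probe sets of a gene, the methods' t-test, fits without the intensity trend, without the age term, without each age and without the young arrays of 4 and 6 weeks, quantile or median scaling, a lower floor (1), an added 50 in place of the floor, and a limit of 200 on the mean signal. Leaving out the young 0 time array and using M60666_s_at for Tpm1 were added after the data were seen. The number of arrays limits the precision. When known changes were put into 200 of 8740 simulated probe sets, the 1 week test found 35% of 2-fold changes (5 false calls) and 82% of 4-fold changes (17 false calls). The simulated noise was independent between probe sets. In these data 34.9% of probe sets were called at 1 week, and the adjustment is stricter where few change. These rates are therefore not those of the test as run here.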

Additional observations from a re-analysis of the deposited data

Results flagged for a closer look

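For 3 probe sets the change from the own 0 time array differed between older and young rats by a test of the difference itself (limma, adjusted over all probe sets). The difference in log2 change was 2.10 for Vim (older 2.89, young 0.80, adjusted p = 0.003) and 3.15 for Cald1 (older 3.32, young 0.17, adjusted p = 0.032). It was 3.53 for M83107_at of Tagln (older 2.53, young -1.0, adjusted p = 0.0058), whereas the brighter Tagln probe set gave 2.09 (adjusted p = 0.14). Of all probe sets, 6.59% were called in this comparison. Each value rests on 1 control array per age, and the source label of the young one reads callus. The young average includes the arrays of 4 and 6 weeks, with Gapdh 3'/5' ratios of 3.48 and 6.57. Without the adult arrays Cald1 was no longer called.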

How the results depend on the processing

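Among the 8 genes, the calls at 0.4 and 1 week kept to within 1.5 times their number of 5 and 7, except in the settings named here. The share of all probe sets called was counted only for the main fit, so the counts under the alternatives have none beside them. Without the age term (no replicate block) 2 genes were called at 2 weeks in place of 4, and no other count over time moved that far. The methods' t-test, with Benjamini-Hochberg adjustment, called 2 genes at 0.4 week and 0 at 1, 2 and 4 weeks, with 5, 5, 3 and 1 at an unadjusted p under 0.05 and 3, 0, 0 and 0 under 0.005, the limit that the methods set for the array software's comparison with the control. At 2 weeks the mean of all probe sets called 1 gene. At 4 weeks 0 were called with scaling to the median (4 at an unadjusted p under 0.05 in limma) and without the young arrays of 4 and 6 weeks (5), 2 with a mean signal of at least 200 and 2 with no intensity trend, and 4 without the young 0 time array. At 6 weeks 1 was called under each of a floor of 1, an offset of 50 and the limit of 200 on the mean signal, and 3 without the young 0 time array. For older against young rats at 4 and 6 weeks the floor, the offset and the signal limit each called 2.

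Leaving out 1 age in turn gave 0 to 5 called genes over time, 2 to 6 at 0.4 week, 0 to 7 at 1 week, 0 to 5 at 2 weeks, 0 to 3 at 4 weeks and 0 to 3 at 6 weeks. Without the adult arrays 1 gene was called for the change from the own control, which could not be fitted without the young or the older arrays. The low values came without the adult or the older arrays and the high values without the young arrays, and fewer arrays were fitted.

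Of 699 values of single genes under the alternatives, 19 changed sign, 69 were no longer called and 44 that had not been called were called. Uncalled changes that turned, as ranges over the ages left out, were Acta2 at 4 weeks (-0.15 to 0.47) and 6 weeks (-0.15 to 0.64), Tagln at 4 weeks (-0.73 to 0.56) and 6 weeks (-0.55 to 0.79), Cnn1 at 2 weeks (-0.085 to 0.29), Actg2 at 0.4 week (-0.14 to 0.19) and 6 weeks (-0.20 to 0.72) and Cald1 at 6 weeks (-0.27 to 1.97). Tagln at 4 weeks was also 0.22 without the young arrays of 4 and 6 weeks, 0.51 without the young 0 time array and 0.16 with the mean of all probe sets. With that mean, Tpm1, called lower at 2 weeks by its brightest probe set, was 0.18, 0.11 and 0.084 at 2, 4 and 6 weeks, since its probe sets differ in direction, and the change from the own control was 0.37 for Tpm1 and -0.13 for Tpm4.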
